A study of Mus musculus with 9 samples.

Results

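Late-called regions near gene ends are stretches of mouse chromatin that were called accessible in every library of days 8 and 21 and in no library of day 4, and that lie within 1 kb of either end of a protein-coding gene. They were chosen from the peak lists alone. Overlapping peaks of the 9 lists (by 1 base or more) on chromosomes 1 to 19 and X formed 62963 union regions, and 12094 of these had a peak in all 6 later lists and none in the 3 day 4 lists. Of the 12094, 1533 (12.7%) lay within 1000 bp of a gene end, which is 2.43% of all union regions. Because the calls of the 3 days chose the regions, their absence on day 4 and presence later is the rule itself and is given no test.

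The regions come from an ATAC-seq study, in which the Tn5 transposase cuts open DNA and marks it for sequencing, of CD8 T cells in tumor-draining lymph nodes. In all groups the cells were wild-type P14 cells on a C57BL/6 background, whose transgenic T cell receptor recognises an epitope of the LCMV glycoprotein (LCMV is lymphocytic choriomeningitis virus), and which here also carry a GFP reporter of TCF-1. As naive cells (CD44 negative, GFP positive), 500000 of them were given to mice that had received B16.F10 melanoma cells expressing that glycoprotein 8 days before. Donor cells (CD45.1+ CD44+ CD8+) were sorted 4, 8 or 21 days after transfer (D4, D8 and D21), with 3 libraries per day and 50000 cells per library. By the labels these are 3 samples a day, but whether they stem from different mice is not stated, and the GFP level was not part of the final sort.

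The start of a gene is usually its promoter, where transcription factors and RNA polymerase keep a short stretch of DNA free of nucleosomes. Promoters rich in CpG dinucleotides are typical of broadly used genes and are open in most cells, whereas promoters poor in CpG more often belong to genes that a cell type switches on. When a naive CD8 T cell meets its antigen it divides, and its descendants open effector genes, such as those of granzymes, and genes of inhibitory receptors, while a memory-like part keeps genes for recirculation through lymph nodes.

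The following 6 gene starts under these regions show the 2 kinds of promoter and are printed here because the values below return to them. Each line gives the 300 bases from 250 before to 50 after the annotated start (RefSeq, GRCm38.p6), 5′ to 3′ on the gene's own strand, with matches to searched motifs in capitals. Positions are counted from the start.
Gzmb, chr14:56262285-56262584, minus strand: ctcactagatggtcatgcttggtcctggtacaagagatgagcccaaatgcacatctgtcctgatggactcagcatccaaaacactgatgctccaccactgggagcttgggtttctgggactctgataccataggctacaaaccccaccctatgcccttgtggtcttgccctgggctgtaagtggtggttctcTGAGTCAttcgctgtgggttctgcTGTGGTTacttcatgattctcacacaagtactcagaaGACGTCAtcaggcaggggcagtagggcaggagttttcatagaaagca
Havcr2, chr11:46454681-46454980, plus strand: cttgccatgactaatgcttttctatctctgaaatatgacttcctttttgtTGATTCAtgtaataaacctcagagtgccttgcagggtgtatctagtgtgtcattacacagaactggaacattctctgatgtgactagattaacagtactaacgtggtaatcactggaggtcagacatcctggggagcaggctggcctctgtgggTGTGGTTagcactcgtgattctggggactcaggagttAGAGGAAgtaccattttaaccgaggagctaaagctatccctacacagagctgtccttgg
Il2, chr3:37125905-37126204, minus strand: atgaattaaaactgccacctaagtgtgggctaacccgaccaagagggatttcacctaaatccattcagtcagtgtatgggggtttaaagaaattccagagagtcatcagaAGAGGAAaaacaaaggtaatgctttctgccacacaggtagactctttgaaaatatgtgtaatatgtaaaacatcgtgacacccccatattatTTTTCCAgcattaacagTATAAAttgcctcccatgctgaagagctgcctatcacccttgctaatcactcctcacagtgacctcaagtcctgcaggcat
Oas1a, chr5:120907476-120907775, minus strand: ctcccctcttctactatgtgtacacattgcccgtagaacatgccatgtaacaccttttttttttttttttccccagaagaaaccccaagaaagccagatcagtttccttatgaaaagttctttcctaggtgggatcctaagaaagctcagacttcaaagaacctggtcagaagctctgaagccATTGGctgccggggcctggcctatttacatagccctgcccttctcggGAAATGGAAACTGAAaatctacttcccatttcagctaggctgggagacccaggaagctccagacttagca
Was, chrX:8090442-8090741, minus strand: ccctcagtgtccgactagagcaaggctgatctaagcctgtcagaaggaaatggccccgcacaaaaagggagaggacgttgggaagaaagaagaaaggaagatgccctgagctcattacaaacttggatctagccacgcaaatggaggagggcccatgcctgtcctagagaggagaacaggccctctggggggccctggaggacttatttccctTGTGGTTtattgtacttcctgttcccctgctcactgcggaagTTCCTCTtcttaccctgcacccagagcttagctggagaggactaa
Tceal9, chrX:136244830-136245129, plus strand: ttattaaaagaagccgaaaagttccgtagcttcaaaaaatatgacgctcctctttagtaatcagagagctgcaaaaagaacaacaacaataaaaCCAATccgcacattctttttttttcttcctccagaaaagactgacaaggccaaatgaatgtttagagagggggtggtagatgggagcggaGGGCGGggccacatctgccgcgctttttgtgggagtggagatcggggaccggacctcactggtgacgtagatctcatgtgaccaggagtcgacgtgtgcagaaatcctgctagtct
In the Gzmb window the capitals are an AP-1 match at -58, a RUNX match at -34 and a CRE match at 3. In Havcr2 they are AP-1 at -200, RUNX at -46 and the lymphoid type of ETS at -9. Il2 has the lymphoid type of ETS at -140, NFAT at -48 and a TATA box at -31. Oas1a has NFY at -67 and 2 overlapping IRF matches at -20 and -14, the binding letters of interferon-activated factors. Was has RUNX at -37 and the lymphoid type of ETS at 5, and Tceal9 has NFY at -156 and SP/KLF at -66. CpG dinucleotides were at 0.10, 0.20, 0.15, 0.19 and 0.23 of the number that base composition predicts in the first 5 windows, and at 0.80 in Tceal9. A match is a description of the letters, and shows no binding.

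The D4 lists were shorter and their peaks lower than those of the later days, and this goes with every statement on calls. D4 lists held 19499 to 22250 peaks and later lists 46492 to 51671. Over always-called regions, those with a peak in all 9 lists, the median fold enrichment (summit over local background, as deposited) was 5.70 to 5.75 on D4, 8.93 to 9.01 on D8 and 8.65 to 8.86 on D21. The smallest background of a list, which scales with its reads, was 2.62 to 3.38 tags on D4 and 2.14 to 3.08 on the later days. Summit pileups in lists of the same day differed by less than independent random (Poisson) counts would (chi-square per region 0.432 to 0.711 over 9 pairs, against 0.965 to 1.278 over 27 pairs of different days). A summit is the highest point of a peak and need not vary as such a count, so the true noise level is not known. The 3 lists of a day also carry the same sequencer sample number in their names, and whether they are separate libraries cannot be told from the sources used here. Each n of 3, SE, SD and p-value below is therefore over lists, and may measure only technical spread. When only the 19499 peaks of highest fold in every list were kept, the rule found 93 regions instead of 1533, and 87 of the 93 overlapped one of the 1533. As this cut was by fold, regions with the highest fold on the later days stay by construction. The lowest mean percentile among the 87 was 50.1. In a mixed population, fewer cells with a site open and less opening per cell cannot be told apart. Of 8 T cell genes used as markers of the sorted cells, 7 had a region called in all 9 lists within 1 kb. These were Cd3e, Cd3d, Cd3g, Cd8a, Cd8b1, Cd2 and Zap70, and Lck had none.

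Most late-called gene-end regions lay at gene starts, but fewer of them than of the regions that were always called. Strand was known for 17274 (79.9%) of 21631 protein-coding genes, and 1190 of the 1533 regions could be placed by it. Of these, 849 were within 1 kb of a gene start (71.3%, Wilson 95% interval 68.7 to 73.8) and 341 were near a far (3′) end only. Among the 8003 always-called regions near gene ends, 96.4% of those placed were at a start, and among all 14117 union regions near gene ends 87.2%. Of the regions at a start, 505 covered the start base and 344 lay beside it, so 59.5% covered it, against 90.8% of always-called regions. The late-called regions were narrower, with a median of 601 bp (quartiles 443 and 809) against 1079 bp, and the part of width in this difference was not tested.

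**Figure D1:**
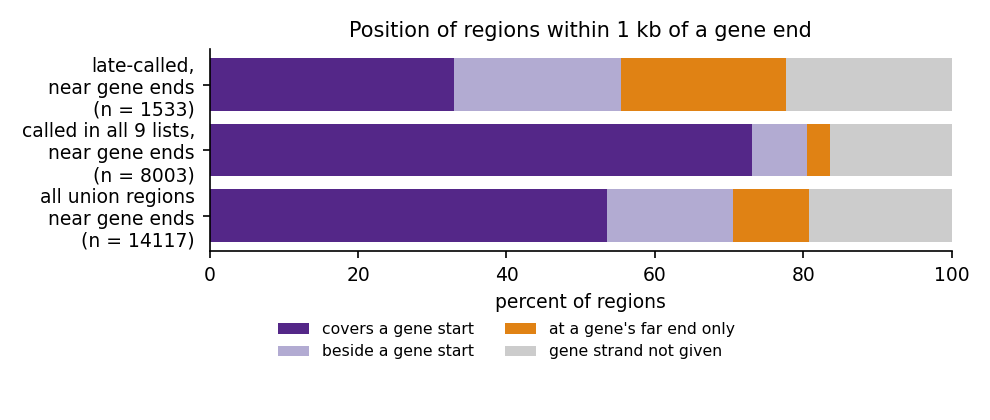
Horizontal stacked bars give the percent of regions (x axis) by position relative to a protein-coding gene, for late-called regions near gene ends, regions near gene ends called in all 9 lists, and all union regions near gene ends (n beside each bar). The orange part, at a far end only, holds 341 of the 1533 late-called regions and 244 of the 8003 always-called ones.

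Around their summits, too, the regions at gene starts sat differently. Over the 505 late-called regions that cover a start, the median summit lay 17 bp inside the transcribed side (quartiles -40 and 117), and 42.2% of summits were upstream of the start. Over 5848 always-called regions that cover a start, the median was -18 bp (quartiles -68 and 49) and 59.1% were upstream.

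Counted by genes, 513 gene starts were covered by a late-called region, and 490 of them had no D4 region within 1 kb. For 342 other starts, the late-called region lay beside a start that it did not cover, and 97 of these starts (28.4%) were themselves covered by a D4 region. In all, 42.4% of the 17274 starts were covered on D4. At 390 genes the late-called region was at the far end only, and the starts of 214 of these genes (54.9%) were covered on D4. At those 214 genes the later call was therefore at the far end of a gene whose start was already called.

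The regions were weak members of the later lists. Fold enrichment was turned into a percentile within each list among the 34555 regions called in all 6 later lists, where 100 is the strongest. The median of the regions' mean percentile was 20.9 (quartiles 11.4 and 35.4), and 161 (10.5%) were above 50. It was 77.2 for always-called regions near gene ends, 27.8 for the 5920 late-called regions inside genes and 31.1 for the 4641 between genes. The median fold of the late-called gene-end regions was 5.09, 5.18 and 5.16 in the D8 lists and 4.97, 4.90 and 4.85 in the D21 lists, and the median summit pileup was 23.0 to 28.0 tags. Near gene ends, weakness on the later days went with the number of D4 calls, as the median percentile was 20.9 with 0 D4 lists, 29.5 with 1, 38.7 with 2 and 77.2 with all 3. The rule's border was thus gradual, with 703 regions called in 1 D4 list and 707 in 2, beside 534 with 0 D4 calls that missed 1 later list. No region near a gene end was called in all D4 lists and no later list. The nearest D4 peak was at a median of 14.09 kb, and for 183 regions (11.9%) it was within 1 kb, among them those at Gbp2 (0.167 kb), Il10ra (0.206 kb), Sh2d2a (0.44 kb), Gzma (0.472 kb) and Il6ra (0.984 kb), named below.

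At a similar percentile of fold, a region near a gene end was still less often missing on D4 than a region elsewhere. Regions of similar fold can differ in −log10 q, on which calls rest, and they were not matched by it. Of the 34555 regions, 35.0% were called in no D4 list. In the bin of percentiles 10 to 20 this share was 51.7% near gene ends and 71.8% away from them, in the bin of 40 to 50 it was 14.6% and 49.0%, and in the bin of 70 to 80 it was 2.0% and 11.8%. The share was lower near gene ends in all 10 bins. Since these calls are what the rule used, the shares are a description.

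**Figure D2:**
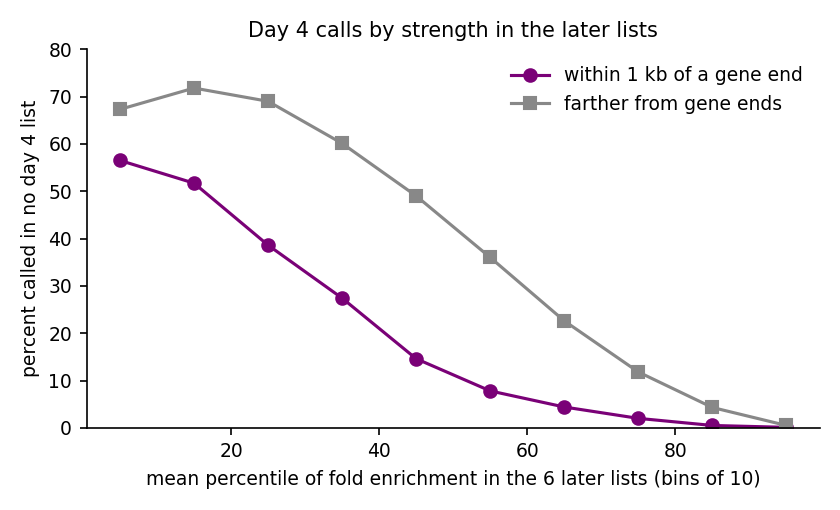
The percent of regions called in no day 4 list (y axis) is plotted against their mean percentile of fold enrichment in the 6 later lists (x axis, bins of 10), for regions within 1 kb of a gene end and regions farther away. The line for gene ends is the lower one in every bin, at 56.5% against 67.3% in the weakest bin and 0.1% against 0.5% in the strongest.

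A total of 1626 genes (7.52% of 21631) had a late-called region at an end. Of these, 1572 had 1 such region, 52 had 2 and 2 had 3. For 427 genes (26.3%) another region within 1 kb of an end was called in all 9 lists, against 42.0% of all genes. In 1077 (66.2%) there was no D4 region at either end, and the same share over all genes was not counted. In 8 lists of T cell genes, 35 of 163 genes (21.5%) had a late-called region, against 7.52% of all genes. Of 56 genes that mark other cell types, 4 (7.1%) had one. Single lists varied within both sets. T cell lists ran from 0 of 12 (killer lectin-like and NK receptors) to 8 of 22 (effector and cytotoxic). Lists of other cell types ran from 0 of 10 (B cell) to 2 of 10 (myeloid and dendritic). All 15 cell division genes had an always-called region at an end and 0 had a late-called one, and of 97 ribosomal protein genes 81 had an always-called region and 2 a late-called one. The lists were chosen with earlier results of these data known, so these shares are a description.

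Effector and cytotoxic genes had the highest share of any list, 8 of 22 (36.4%), with the granzyme genes at the front. Granzymes are the proteases that a killer T cell delivers into its target, and Gzma, Gzmb, Gzmk and Gzmm had late-called regions. The Gzmb region, chr14:56262037-56262663, covered the gene's start, and its fold was 11, 8.61 and 8.18 in the D8 lists and 9.42, 7.5 and 9.15 in the D21 lists. The ranges of the days overlapped, and with a mean percentile of 73.7 it ranked 32nd of the 1533. It was also among the 93 regions found with lists of equal length. Of all genes of the 17 lists with a late-called region, only Gzmb and Il2ra kept it there, so the other list genes named below rest on lists of unequal length. Since that cut kept the peaks of highest fold, staying restates a high fold and adds no separate support for Gzmb and Il2ra. The other granzyme regions were weaker and lay beside the genes or at far ends: upstream of the start at Gzma (843 bp, mean percentile 14.3), and at the far ends of Gzmk (948 bp, 28.4) and Gzmm (0 bp, 29.6).

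Other effector genes with a region at the start included Cx3cr1, the fractalkine receptor gene of circulating effector cells, and Itgam, which encodes the integrin chain CD11b. The Cx3cr1 region (chr9:120068048-120068590) had folds of 6.61, 6.22 and 6.46 on D8 and 6.02, 6.78 and 7.35 on D21, and the D8 values lay within the D21 range. The Itgam region (chr7:128062313-128062892) had 6.18, 7.92 and 8.19 on D8 and 10.23, 10.05 and 9.11 on D21. All 3 D21 values were above all 3 D8 values, but the difference in percentile, 26.7 ± 7.2 (SE), did not pass (limma, adjusted p = 0.135). Tbx21, the gene of the effector transcription factor T-bet, also had a region over its start. Ccl5, a chemokine gene of memory and effector cells, had one across an end. They are named here although they fell outside the 6 strongest of the list, and were chosen after their values were seen. Both were weak by fold, with mean percentiles of 6.84 and 2.96, and also low by −log10 q, with 11.5 and 8.6.

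Memory and stemness genes had late-called regions at 6 of 22. The regions described here had mean percentiles of 8.75 or less. The start of Cxcr3, a chemokine receptor gene, had folds of 4.15, 3.79 and 4.23 on D8 and 4.0, 4.08 and 4.18 on D21, with D21 inside the D8 range. Ccr7, the receptor gene for entry into the T cell zone, and Satb1, Il6ra and Klf2, the last a transcription factor of quiescent T cells, had mean percentiles of 3.11, 6.52, 8.75 and 0.0608. The Klf2 region, 384 bp beyond the gene's far end, was the weakest of all 1533.

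Inhibitory receptor genes had late-called regions at 4 of 19, namely Havcr2, Lag3, Tigit and Lilrb4a. Havcr2 encodes TIM-3, and its region (chr11:46454640-46455068) covered the start printed above with folds of 4.59, 5.16 and 4.93 on D8 and 4.60, 4.81 and 4.42 on D21. Tigit's region, 558 bp beyond the gene's far end, had 7.41, 6.19 and 5.51 on D8 and 7.05, 8.58 and 7.48 on D21. For both genes the ranges of the days overlapped. Lag3, a receptor gene whose product binds MHC class II, had a region 466 bp inside one end (mean percentile 23.6), and Lilrb4a, an immunoglobulin-like receptor gene, one across an end (51.7). Reads of Lilrb4a may be shared with a similar neighbouring gene, so its value is uncertain.

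Activation and costimulation genes had regions at 5 of 23. Il2 encodes interleukin-2, the growth factor that activated T cells secrete, and Il2ra the high-affinity chain of its receptor. The Il2 region (chr3:37125632-37126483) covered the start, with folds of 5.11, 4.53 and 5.00 on D8 and 6.44, 6.09 and 8.00 on D21. The Il2ra region (chr2:11692895-11693513) lay across the gene's far end, with 9.00, 8.79 and 7.80 on D8 and 10.19, 9.44 and 10.12 on D21. At both genes every D21 value was above every D8 value, and neither difference passed (limma, percentile difference 31.2 ± 8.5 SE, adjusted p = 0.137 for Il2, and 14.2 ± 4.8, adjusted p = 0.201 for Il2ra). Ranked by −log10 q instead of fold, Il2 passed (limma, adjusted p = 0.0444). Icos and Tnfrsf18, which encode costimulatory receptors, had mean percentiles of 36.5 and 1.04, and the 5th gene is not described.

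**Figure D3:**
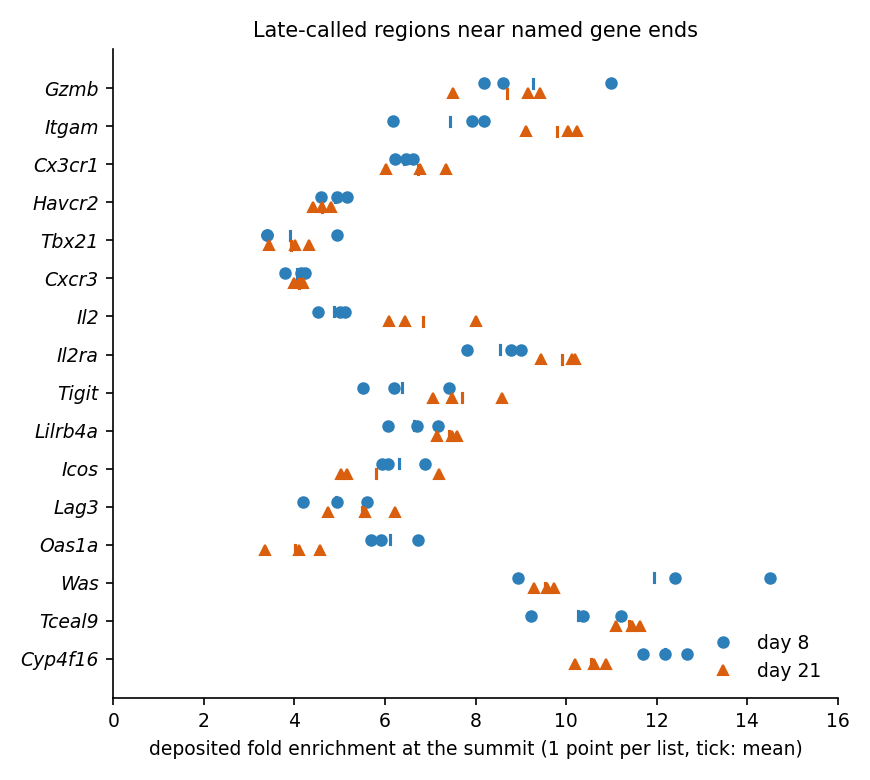
Deposited fold enrichment at the summit (x axis) is plotted for late-called regions near named genes (y axis), with 1 point per list, circles for day 8, triangles for day 21, and a tick at each day's mean. The D21 points lie to the right of the D8 points for Itgam, Il2 and Il2ra and to the left for Oas1a and Cyp4f16, and none of these differences passed the test on ranks of fold.

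Of 25 cytokine and chemokine receptor genes, 6 had late-called regions, among them Il18r1, Il10ra, Ifngr2, Cxcr6 and Osmr, and none of these was above a mean percentile of 18.4. Of 15 matched residency and adhesion genes, 3 did. The strongest was that of Itgb2, the integrin chain that pairs with the product of Itgam, at 44.6. That of Cdh1, the E-cadherin gene, had folds of 6.03, 4.80 and 5.28 on D8 and 6.96, 7.14 and 6.49 on D21. The values of the days did not overlap, and the difference of 24.4 ± 7.8 (SE) in percentile did not pass (limma, adjusted p = 0.177). P2rx7, a receptor gene for extracellular ATP, was at 22.8. The 12 killer lectin-like and NK receptor genes had 0 late-called regions and 1 of the 12 had an always-called one.

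T cell identity and receptor signalling genes had late-called regions at 3 of 25, while 16 had an always-called region. Lcp2 and Skap1 encode adaptors of the T cell receptor pathway, and each had a late-called region at both gene ends. Those at Skap1 differed, with mean percentiles of 1.43 at one end and 62.0 at the other, 433 bp outside the gene. The latter (chr11:96760055-96760518) had folds of 9.36, 9.21 and 9.09 on D8 and 6.73, 7.14 and 6.22 on D21. All D8 values were above all D21 values, and the difference in percentile was -29.1 ± 5.9 (SE; limma, adjusted p = 0.0827). Ranked by −log10 q, it passed (limma, adjusted p = 0.0149). Lcp2 had 5.62 near its start and 34.0 beyond its far end, and Sh2d2a, another adaptor gene, had 4.51.

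Interferon response genes had late-called regions at 3 of 15 matched, with 11 holding an always-called one. Oas1a encodes a sensor of double-stranded RNA, and its region (chr5:120906926-120907840), which covers the start with the IRF matches printed above, had folds of 5.90, 6.72 and 5.68 on D8 and 4.57, 4.10 and 3.35 on D21. Every D21 value was lower, and the difference of -29.5 ± 6.7 (SE) in percentile did not pass (limma, adjusted p = 0.0995), but passed when ranked by −log10 q (limma, adjusted p = 0.032). Isg15, the gene of a ubiquitin-like protein, and Gbp2, a guanylate-binding protein gene, had mean percentiles of 4.66 and 24.7. Similar genes lie beside Oas1a, so reads may be shared between them.

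Among the 18 constitutive genes, 16 had an always-called region and 2, Actb and Rab7, had a late-called one, at 1.37 and 37.4. Of markers of other cells, 0 of 10 B cell genes, 0 of 9 CD4 and regulatory T genes and 0 of 8 melanocyte genes had one. Over all genes the share was 7.52%, so a count of 0 in so short a list shows little. Other genes of these cell types were not counted. The lists with late-called regions were myeloid and dendritic (2 of 10), stromal and endothelial (1 of 12) and erythroid and platelet genes (1 of 7). Flt3 of dendritic precursors (28.6) and Kdr of endothelium (15.5) were among their genes with a region, with 2 more genes that are not described. Their part in the other results was not tested.

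The strongest regions of all were mostly not at genes of the lists. The first of the 1533 was at Cyp4f16, a cytochrome P450 gene (chr17:32550825-32551653, 145 bp inside the far end), with folds of 11.7, 12.19 and 12.68 on D8 and 10.62, 10.87 and 10.19 on D21. The second was at the start of Tceal9 on the X chromosome (chrX:136244667-136245417), with 9.22, 10.38 and 11.22 on D8 and 11.11, 11.46 and 11.64 on D21, and the days overlapped there but not at Cyp4f16. Was, whose product links receptor signals to actin in blood cells, was the 5th (chrX:8090290-8090895), with 8.93, 14.50 and 12.41 on D8 and 9.74, 9.30 and 9.57 on D21. The D8 values were the more spread and enclosed those of D21. The others of the strongest 10 were at Vmn2r87, Plekhb1, Osbpl3, Slc9b2, Vangl2 and Nudt19, with mean percentiles of 79.7 to 86.3, and 1 gene with no settled name. Slc9b2, a sodium-proton exchanger gene, had its region at the start, and Osbpl3, a lipid transfer protein gene, at the far end. Vmn2r87 belongs to a family of similar receptor genes, so its value is uncertain. All 10 were also found with lists of equal length, which follows from their high fold, since that cut kept the peaks of highest fold.

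The widest regions were broad rather than strong. Those at Macroh2a1, a histone variant gene, Dock5, Shisa3, Sytl1 and Adcy6 spanned 1788, 1754, 1733, 1664 and 1637 bp and had mean percentiles of 17.9, 20.3, 16.1, 6.35 and 14. At the limit of the rule, the 3 regions just inside were at Cwh43 (1000 bp, mean percentile 8.02), Ap1m2 (999 bp, 6.97) and S100a6 (999 bp, 38.6). The 3 just outside were at Mthfsd, Scarb1 and Sntb2, each 1003 bp away, with 51.1, 14.8 and 47.9. By chromosome, late-called regions made up 10.1% (chromosome 13) to 17.8% (chromosome 14) of the regions near gene ends called in all 6 later lists.

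Promoters under the late-called regions stood between those of always-called regions and those in no region in their CpG content. A late-called region overlapped 618 promoter windows of 578 genes. Their median CpG observed over expected was 0.658, against 0.817 for 8636 windows under always-called regions, 0.232 for 9670 windows in no called region, and 0.574 for all 21045 windows. With 0.6 or more taken as CpG-rich, 58.6% were CpG-rich (Wilson 95% interval 54.7 to 62.4), against 83.4%, 13.8% and 48.1%. The few T cell genes among them were mostly CpG-poor. Of the 8 windows of T cell list genes under late-called regions, 7 were CpG-poor (Gzmb, Il2, Tnfrsf18, Havcr2, Cxcr3, Cx3cr1 and Itgam, 0.10 to 0.32) and 1 was CpG-rich (Tbx21, 0.75). Of windows of the same lists under always-called regions 47.0% of 66 were CpG-rich, and of all 163 windows of these lists 33.7%.

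**Figure D4:**
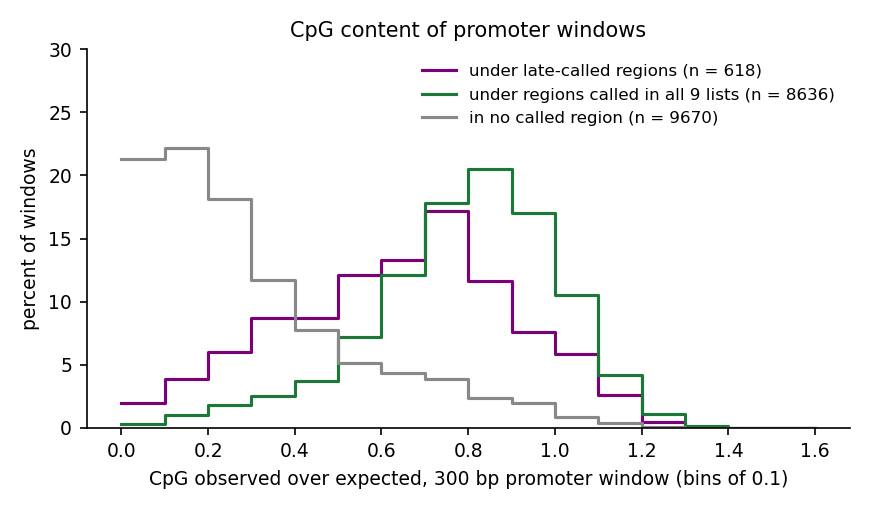
The percent of promoter windows (y axis) in each bin of CpG observed over expected (x axis, bins of 0.1) is drawn for windows under late-called regions, under regions called in all 9 lists and in no called region (n in the legend). The late-called line peaks at 0.7 to 0.8, the always-called line at 0.8 to 0.9 and the line for no region below 0.2.

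In motif content the windows differed from always-called ones most in the promoter type of the ETS motif. Its letters CCGGAAG, searched on both strands as were all 17 motifs, were in 8.1% of windows under late-called regions, in 22.9% under always-called regions and in 11.7% of all windows. NRF1 (GCGCATG; 4.5%, 8.4% and 4.8%) and CRE (TGACGTC; 3.1%, 6.8% and 3.9%) had the same order of the first pair. SP/KLF (GGGCGG) was in 64.2%, 70.4% and 46.7%, and NFY (CCAAT) in 31.6%, 40.7% and 38.5%. The E-box CACCTG, of ZEB and E proteins, was in 23.6% of windows under late-called regions, 16.2% under always-called regions and 19.9% of all. AP-1 (TGANTCA) was in 6.1%, 3.6% and 7.0%, a TATA box (TATAAA) in 7.4%, 5.5% and 12.7%, and the lymphoid type of ETS (AGAGGAA) in 8.3%, 8.2% and 9.8%. Shares for RUNX (TGTGGTT; 3.9%, 3.3% and 4.7%), T-box (GGTGTGA; 3.7%, 3.0% and 3.7%), TCF/LEF (CTTTGAT; 3.4%, 2.4% and 3.3%), NFAT (TGGAAAA; 3.7%, 4.1% and 6.0%) and IRF (GAAANNGAA; 7.3%, 6.7% and 8.1%) lay closer together. Several of these motifs contain CpG (promoter ETS, NRF1, CRE and SP/KLF) and the others do not. Within CpG-rich windows promoter ETS was in 9.1% under late-called and 24.6% under always-called regions, and within CpG-poor windows in 6.6% and 14%. SP/KLF changed order, with 79.0% and 74.9% of CpG-rich windows and 43.4% and 47.4% of CpG-poor ones. CACCTG was in 23.8% and 15.3% of CpG-rich windows and 23.4% and 20.7% of CpG-poor ones. The shares are a description.

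D21 was compared with D8, a contrast the rule did not use, at an adjusted threshold of 0.05. No late-called gene-end region passed, in either direction. The test was limma on the percentiles, adjusted by Benjamini-Hochberg over all 34555 regions, where 0.026% of regions were called higher on D21 (9) and 0.00289% lower (1), and 0 and 0 of the 1533. At an unadjusted p under 0.05, 96 of the 1533 were higher (6.26%, against 8.14% of all regions) and 180 lower (11.7%, against 7.91%). The 3 D21 values lay wholly above the D8 values for 117 regions (7.63%, against 10.3% of all) and wholly below for 221 (14.4%, against 10.9%). A lower mean percentile on D21 was found for 895 (58.4%), and for 51.3% of all regions.

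The smallest adjusted p among the 1533, 0.0537 (limma), was shared by regions at Rgs18, Epha3 and Klhl4, which are named after their values were seen. Rgs18 encodes a regulator of G protein signalling in blood cells, and its region (chr1:144775137-144775696) had folds of 6.06, 7.43 and 6.34 on D8 and 11.51, 11.10 and 10.30 on D21. Epha3, an ephrin receptor gene, had 3.51, 5.05 and 4.96 on D8 and 7.97, 7.82 and 7.60 on D21 at its start (chr16:63863863-63864502). Klhl4 had 7.65, 6.24 and 7.72 on D8 and 11.21, 12.28 and 11.78 on D21 at its start (chrX:114473862-114474771). In all 3 the D21 lists were higher without overlap, by 45.78 ± 6.18, 48.99 ± 7.56 and 40.89 ± 6.06 percentiles (SE). All 3 passed when only regions near gene ends were ranked (limma, adjusted p = 0.0189, 0.0291 and 0.0189).

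As a group the late-called gene-end regions had a lower median rank on D21 in these lists, by an amount that the design could not call at 0.05. Their median percentile was 21.1, 22.3 and 21.8 in the D8 lists and 19.8, 18.6 and 17.4 in the D21 lists, a difference of -3.14 (exact permutation test over 20 arrangements, two-sided p = 0.1, the smallest that 3 against 3 lists can give). All D21 lists were below all D8 lists. The difference was -3.78 at gene starts and -2.58 at far ends (exact two-sided p = 0.1 each). Always-called regions near gene ends had a difference of -2.05 (exact two-sided p = 0.1), whereas late-called regions inside genes and between genes differed by -0.42 and 0.58 (exact two-sided p = 0.4 and 0.5). When only regions near gene ends were ranked, the difference of the late-called ones was -0.53 (exact two-sided p = 0.2). Measured against other late-called regions, they were 6.5 ± 0.39 percentiles lower (SD, 3 lists) on D8 and 9.8 ± 2.09 lower on D21, a difference of -3.35 (exact two-sided p = 0.1). Regions over CpG-rich windows differed by -4.61 and over CpG-poor windows by -3.18 (exact two-sided p = 0.1 and 0.2), and whether these differ from each other was not tested.

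**Figure D5:**
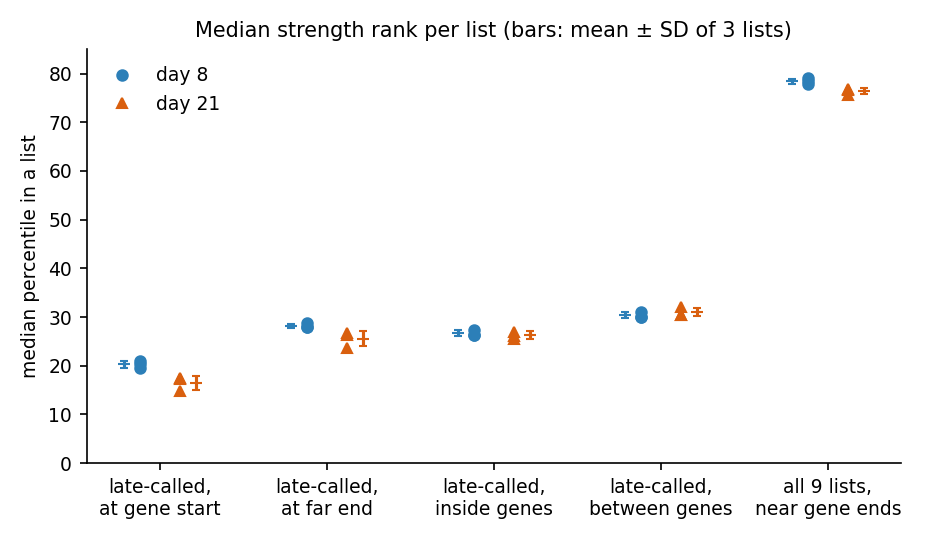
Median percentile of fold enrichment within a list (y axis) is plotted per list for 5 sets of regions (x axis), with circles for day 8, triangles for day 21, and bars for the mean ± SD of the 3 lists of a day beside them. For late-called regions at gene starts and far ends and for always-called regions near gene ends the D21 points are below the D8 points, and for the other 2 sets they overlap.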

How the data were processed

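ATAC-seq peak lists of 9 libraries, 3 for each of days 4, 8 and 21, were used. The submitters' processing notes name MACS2, deepTools 2.0, BWA 0.7.15, Picard and the mm10 build without saying what each did. Read filters, settings and any Tn5 shift: not given in the sources used here. Groups and replicate numbers came from the sample titles, since the tags for genotype and time point hold each other's values. The authors called peaks per library and deposited for each a position, a score, a fold enrichment (ratio) at the summit, −log10 of the p-value and of the q-value, and the summit's position. All deposited peaks had a q of 0.05 or less. These values were used to describe and rank peaks within a list. Precision is limited by pileups of few tags, and read totals are not used here.

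Summit pileup and local background were recovered from fold and −log10 p (whole within 0.01 for at least 99.995% of peaks of each list). The 353295 peaks on chromosomes 1 to 19 and X were merged into union regions, and positions of 21631 protein-coding genes, their strand where promoter windows give it, and sequences came from RefSeq tables for GRCm38.p6, the assembly of mm10. Coordinates are 1-based.

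Percentile ranks of D8 and D21 were compared in R 4.3.3 with limma 3.58.1 and its trend and robust options, over regions called in all 6 later lists, with a threshold of 0.05, after tests on simulated data. Single values were compared by exact permutation tests, two-sided. No test was made of what the rule used. The members and the 17 gene lists were chosen with earlier results of these data known. Genes were named where a list gene lay at an end (the 6 strongest of a list), for the 10 strongest, the 5 widest and the 3 on each side of the 1000 bp limit; genes with no settled name and those of chromosome 18 were counted only, and some named genes are not reported here. Alternatives were a stricter q, lists of equal length, other distances and covers, other ranks, moderation and a replicate block, and each list left out. Other steps ran in Python 3.11.15 with numpy 2.4.6, pandas 2.3.3, matplotlib 3.10.9 and scipy 1.17.1.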

Additional observations from a re-analysis of the deposited data

Results flagged for a closer look

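Peaks outside chromosomes 1 to 19 and X were not used in any comparison. The 9 lists held 194 peaks on chromosome Y in all, 19 to 26 per list, and 18 on the mitochondrial genome, 2 in every list, and these were noted because no comparison above covers them. Neither number separated the days, since D4 lists had 19 to 24 chromosome Y peaks and later lists 20 to 26. No untreated sample was used here, so no control level stands beside them.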

How the results depend on the processing

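The number of late-called gene-end regions depends on list length. It was 1533 as reported, 93 with lists cut to the shortest, 897 when peaks had to cover at least 50% of a region, 1539 at a q of 0.01, 1173 and 2127 with limits of 500 and 2000 bp, and 1573 to 1900 with 1 list left out. Fewer peaks per list, a tighter cover and other limits change it by construction. The share at a gene start was 71.3%, and 57.7% with lists cut to the shortest, 76.6% at 500 bp and 65.5% at 2000 bp. The CpG-rich share was 58.6%, and 61.1% where the region covered at least 50% of the window.

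For D21 against D8, limma called 0 regions higher and 0 lower as reported, at the stricter q, without trend and robust moderation, and with each list left out. It called 7 and 5 on normal scores, 26 and 54 on ranks by −log10 q, and 3 and 0 with only regions near gene ends ranked, and the cause was not tested. Over all 34555 regions the counts were 136 higher and 74 lower on normal scores, and 1111 and 845 by −log10 q. Over the 10946 regions near gene ends they were 3 and 0. The 5 on normal scores were at Raph1, Nog, Slc13a2, Tpbgl and Bpi, named after their values were seen. The median difference was -3.14, -3.96 by −log10 q, -0.53 among regions near gene ends, and -3.73 to -2.54 with 1 list left out. Same-numbered lists of the days did not deviate together (correlations 0.013, -0.003 and 0.022). As lists of a day differed by less than Poisson counts would, these values cannot tell whether the numbers mark a pairing. With a replicate block the calls were 0 and 0. Of 72 named mean percentiles, 41 moved by more than their spread under ranks by −log10 q and 22 among regions near gene ends. Ranks by −log10 q placed some weak regions higher, as at Sh2d2a (4.5 to 36.0) and Isg15 (4.7 to 27.3). They placed some strong ones lower, as at Cyp4f16 (91.4 to 70.3). The words weak and strong for single regions therefore refer to fold. Low pileups limit the precision of single regions. Ranked by −log10 q, the named regions at Il2, Oas1a, Skap1 and Vmn2r87 passed.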

Other observations

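Gene families beyond the lists, chosen after their values were seen, show where else late-called gene-end regions lay. Of the 10 granzyme genes 5 had one and 0 had an always-called region, the 5th being Gzmf (2 regions, mean percentiles 24.6 and 38.2), whose reads may be shared with near-identical neighbours. Of 19 Wnt ligand genes 6 had one and 1 an always-called region: Wnt10a, Wnt10b, Wnt16, Wnt2b, Wnt5b and Wnt7a, with mean percentiles from 1.59 to 36.5. Tumor necrosis factor ligands and receptors had 9 of 31, among them Tnfsf4, Tnfsf8, Tnfsf9 and Tnfrsf8, and integrins 8 of 31, among them Itga5, Itga9 and Itgb8. Interleukins and their receptors had 14 of 83, including the genes of the cytokines Il10, Il12a, Il12b and Il7, and chemokines and their receptors 8 of 56, including Ccl17 and Cxcl9. At the other extreme were olfactory receptor genes, with 6 of 1110 (0.5%) and 4 with an always-called region, against 7.52% of all genes with a late-called region. Killer lectin-like receptor genes had 0 of 29 and 1 with an always-called region, and a family this small cannot be set apart from the share of all genes by that count.

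Late-called regions near more than 1 gene were 147 of 1533, and the other 1386 were near 1 gene.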
